A study of Caenorhabditis elegans with 7 samples.

Results

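Starved L1 larvae of the nematode Caenorhabditis elegans differed from library to library in the level of cuticle gene transcripts. The 7 mRNA libraries of the series were selected into 2 sides by the level of dpy-17, a cuticle collagen gene, in CPM (the raw count scaled to the total of all annotated features). The 3 libraries above 15 CPM, called the high side, were AL B (48.1 CPM), AL C (21.4 CPM) and DR B (54.3 CPM). The 4 libraries below it, the low side, were AL A (5.75 CPM), DR A (1.54 CPM), DR C (3.82 CPM) and DR D (5.05 CPM). AL C was the library nearest to the threshold from above and AL A the nearest from below, with none between them. Because a value measured in these same libraries made the sides, every difference between the sides is given here as a description without a test.

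All larvae were of the wild-type strain N2. AL and DR name the food of the parents, ad libitum (AL, 3 libraries) or dietary restriction (DR, 4 libraries), which grew from embryos at 20 °C for 96 hr in S-complete liquid with the bacterium HB101 at 25 (AL) or 3.1 (DR) per mL. The labels give the DR amount in mL and the AL amount in mg. Embryos of these adults were freed by bleach and kept in S-basal, which holds no food, for 24 hr before the larvae were frozen, so all 7 libraries are whole populations of starved larvae. The submitters describe the libraries of a group as biological replicates. The high side held 2 AL libraries and 1 DR library, and the low side 1 AL library and 3 DR libraries, so parental food is mixed on both sides but not balanced.

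The nematode cuticle is a collagen-rich coat that the epidermis secretes before hatching and again at every moult. Its collagens are made in waves within each cycle, with the collagens of the circumferential furrows among the early ones. A transient precuticle of zona pellucida proteins, lipocalins and other matrix proteins comes before the collagens and shapes them. Nuclear receptors such as NHR-23 and NHR-25 time the cycle, and secreted hedgehog-related proteins and patched-related membrane proteins are made by the epidermis alongside it. Larvae that hatch without food stop development in L1 and do not moult until they are fed.

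Annotated features took between 16626117 and 22952310 counts per library, and a count of 0 allows up to 0.131 to 0.180 CPM, for counting error only. Of 44968 features, 14867 genes passed a filter on low counts. In a principal component analysis of 13277 genes, the leading component held 35.7% of the variance and placed AL B at 34.7, AL C at 18.9 and DR B at 12.2, against −22.7 to −7.73 on the low side. DR B had its highest correlation over all genes with AL C (0.989), a library of the other parental food. DR D stood apart in the share of counts from ribosomal RNA, 22.5% against 7.54% to 12.2% in the other 6 libraries.

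Across all genes, those separating the sides were mostly higher on the high side and mostly of low abundance. A gene is called apart here where the libraries of the sides did not overlap and the side means of log2 CPM differed by at least 1, which is 2-fold. By this rule 197 of 14867 genes were apart and higher on the high side, 1.33% of those that passed, and 19 were apart and lower, 0.128%. Without the size limit, 744 genes (5%) were higher and 542 (3.65%) lower with no overlap. These shares are the background for the counts of each list below. A list with none apart lies near them, so such a count is not a result about its genes. The median difference of all genes was 0.00 on the log2 scale. Of the 197 higher genes, 33 averaged at least 5 CPM and 55 averaged under 1 CPM, with a median of 1.98 CPM against 11.5 CPM for all genes that passed. In 39 of them all 4 low libraries lay under the 0.496 CPM of the filter, so these passed through the high side and had to differ. Of the 19 lower genes, 9 averaged under 1 CPM. In 8 of the 19 all 3 high libraries lay under that level of the filter, so these passed through the low side and had to differ.

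**Figure D1:**
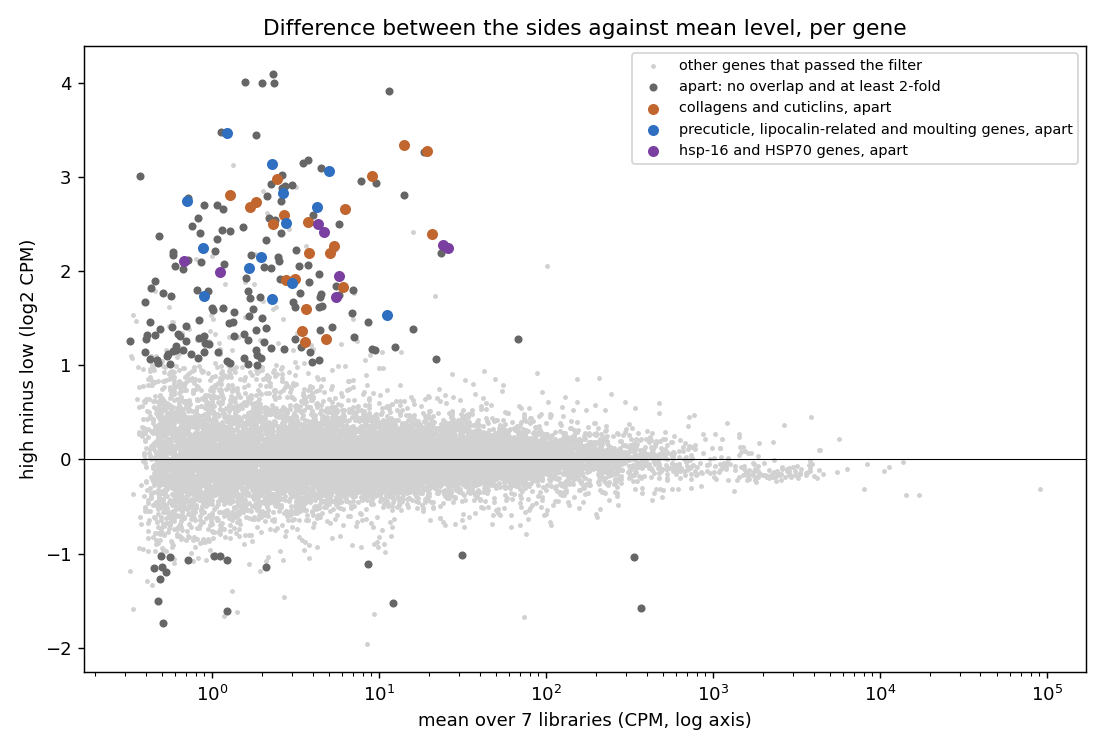
Each point is 1 of the 14867 genes, with its mean level over the 7 libraries in CPM (log axis) on the x axis and the high-minus-low difference of log2 CPM on the y axis. Genes that are apart are dark or coloured; the 197 higher ones sit mostly below 10 CPM, and 19 are lower.

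Of the 197 genes, 58 belonged to lists of cuticle, matrix, moulting and hedgehog-related genes, which hold 285 of the genes that passed. This count includes dpy-17, which made the split, and genes named below that passed the filter through the high side. It also includes the lipocalin-related and pharyngeal idp lists, made after the values had been seen, so it is a description. A further 79 are known only by a clone name. In whole larvae, fewer cells of a type and less RNA per cell cannot be told apart, here and in all that follows. CPM below are scaled by TMM factors, and differences on the log2 scale use a prior count of 2, which makes them smaller for genes of few counts.

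Collagens that set body shape held the largest differences among abundant cuticle genes. The gene dpy-17 (F54D8.1), by which the sides were chosen, had 47.8, 20.7 and 51.2 CPM in the high libraries (in the order AL B, then AL C, then DR B) and 5.71, 1.55, 4.02 and 5.37 CPM in the low ones (AL A, then DR A, DR C and DR D). In that same library order, used throughout, dpy-14 (H27M09.4), a collagen gene needed in embryos for normal body form, had 41.1, 12.3 and 32.7 CPM, against 4.80, 0.436, 3.96 and 3.71 CPM (log2 difference 3.34). The collagen gene sqt-3 (F23H12.4), whose mutants are squat, had 46.1, 27.4 and 41.2 CPM, against 9.04, 3.15, 7.04 and 12.0 CPM (2.39). AL C was the lowest of the high side and DR A the lowest of all for each of these 3 genes. They were the members apart among 8 of 15 body-shape collagens (furrow genes aside) that passed the filter. Among all genes 1.33% were apart and higher. For dpy-17 the lack of overlap was fixed by the split, so it is no support for this count. The remaining 5 ran from −0.34 (dpy-4) to 0.34 (dpy-13), with bli-1, dpy-5 and rol-8 between, each under 2 CPM in every library. The list's median was 0.24.

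Furrow collagens, which form the circumferential grooves of the cuticle, were apart in 3 of 6 members. The gene dpy-7 (F46C8.6) had 5.90, 2.02 and 7.36 CPM on the high side and 0.519, 0.532, 0.365 and 0.511 CPM on the low side (log2 difference 2.98). Its partner dpy-3 (EGAP7.1) had 2.78, 1.92 and 5.46 CPM against 0.519, 0.387, 0.469 and 0.256 CPM (2.68). For dpy-10 (T14B4.7), the gene whose alleles serve as a visible marker in genome editing, the values were 8.27, 2.98 and 6.91 CPM against 1.43, 1.26, 2.14 and 2.49 CPM (1.6). AL C was the lowest of the high side for all 3 genes, and every low library lay below it. The other members overlapped: dpy-2 (0.88), where DR D at 4.79 CPM exceeded AL C at 3.84 CPM, dpy-9 (0.50) and dpy-8. The last went the other way, at 3.07, 3.98 and 2.75 CPM against 4.32, 5.71, 3.86 and 4.79 CPM (−0.50). The median of the list was 1.24.

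The large col family of cuticle collagens differed in a small number of its genes. Of 156 members found, 101 passed the filter and 14 were apart and higher, with differences from 1.24 (col-104) to 2.81 (col-121, which passed the filter through the high side). None was apart and lower, while col-124 (−0.64) and col-41 (−0.43) were lower with no overlap. The gene col-165 had 10.04, 13.3 and 11.3 CPM against 1.64, 0.532, 1.77 and 5.37 CPM (2.66), and col-74 had 10.7, 10.2 and 7.77 CPM against 1.64, 0.678, 3.13 and 3.45 CPM (2.27). The neighbouring and similar genes col-12 (2.52) and col-13 (2.73) and the gene col-65 (1.83) were lowest of the high side in AL B. The most abundant members did not separate the libraries: col-42 had 1219 to 1743 CPM on the high side and 821 to 1824 CPM on the low side, and col-107 had 847 to 994 against 477 to 865 CPM. Summed over the family, the sides overlapped at 5695 to 7260 and 3916 to 7597 CPM, and the family's median difference was 0.23.

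Enzymes that build and link collagen differed by small amounts. None of 13 genes for collagen processing and cross-linking was apart. Among all genes 1.33% were apart and higher, so this count is not a result about them. Their median difference was 0.10, within a range of −0.31 to 0.62. Of the 13 genes, 11 lay above 0 and 2 below, and 1 was higher without overlap, against 5% of all genes. The list included the dual oxidase gene bli-3 (0.07), the subtilisin-like protease gene bli-4 (0.12), the prolyl hydroxylase genes dpy-18 (0.16) and phy-2 (0.15), and the procollagen protease gene dpy-31 (0.10). Each of these 5 had overlapping sides.

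Precuticle and apical matrix genes all lay above 0. Of 17 members, each of which passed the filter, 7 were apart and higher, and the median was 0.51. Of the 7, lpr-5 passed the filter through the high side and had to differ, and it is counted again among the lipocalin-related genes below. The zona pellucida gene noah-1 (C34G6.6), which attaches the epidermis to its matrix, had 22.9, 12.8 and 18.2 CPM against 6.79, 4.36, 5.32 and 8.18 CPM (1.53). Its relative noah-2 (F52B11.3) had 11.2, 3.94 and 9.93 CPM against 1.12, 0.532, 1.20 and 1.98 CPM (2.68). The fibrillin-like gene fbn-1 had 1.71, 2.45 and 5.01 CPM against 0.778, 0.387, 0.469 and 0.894 CPM (2.03), and it stood highest in DR B. The leucine-rich repeat genes sym-1 (1.87) and let-4 (1.73) were apart as well. The precuticle genes let-653 (0.35) and dex-1 (0.51) overlapped between the sides.

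Lipocalin-related genes, whose products line embryonic tubes and the precuticle, fell into 2 kinds. The neighbouring genes lpr-3, lpr-4, lpr-5 and lpr-6 were apart, with differences of 2.83, 2.74, 3.46 and 2.25. In lpr-4, lpr-5 and lpr-6 all low libraries lay under the level of the filter, so these 3 passed through the high side and had to differ. The gene lpr-3 had 9.27, 2.40 and 4.52 CPM against 0.605, 0.387, 0.626 and 0.703 CPM. By contrast lpr-2, the most counted member, had 36.4, 42.9 and 41 CPM against 43.2, 39.2, 35.9 and 39.9 CPM (0.02), and lpr-7 (0.01) and lpr-1 (0.79) overlapped too. This list was put together after the values had been seen. Without DR B, 1 gene of the list was apart in place of 4, and its median went from 2.25 to 0.34. With a mean of at least 1 CPM, 2 of 4 genes were apart.

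Cuticlins, insoluble cuticle proteins of which several form the lateral ridges called alae, were apart in 2 of 24 members. The gene cut-2 had 20.0, 16.51 and 12.64 CPM against 2.68, 0.0968, 3.76 and 7.67 CPM (3.01), and cut-3 had 6.02, 10.2 and 10.4 CPM against 1.56, 0.726, 1.88 and 4.73 CPM (2.19). DR A was again the lowest library and DR D the highest of the low side. In DR A cut-2 lay below the 0.1445 CPM that a count of 0 allows there, and without DR A its difference was 1.89. The difference of cut-2 was 3.33 among libraries of the file-name prefix BB1 and 1.23 among those of BB2, and that of cut-3 was 2.92 and 0.71. The median of the list was 0.19, and 4 members were apart without AL C.

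**Figure D2:**
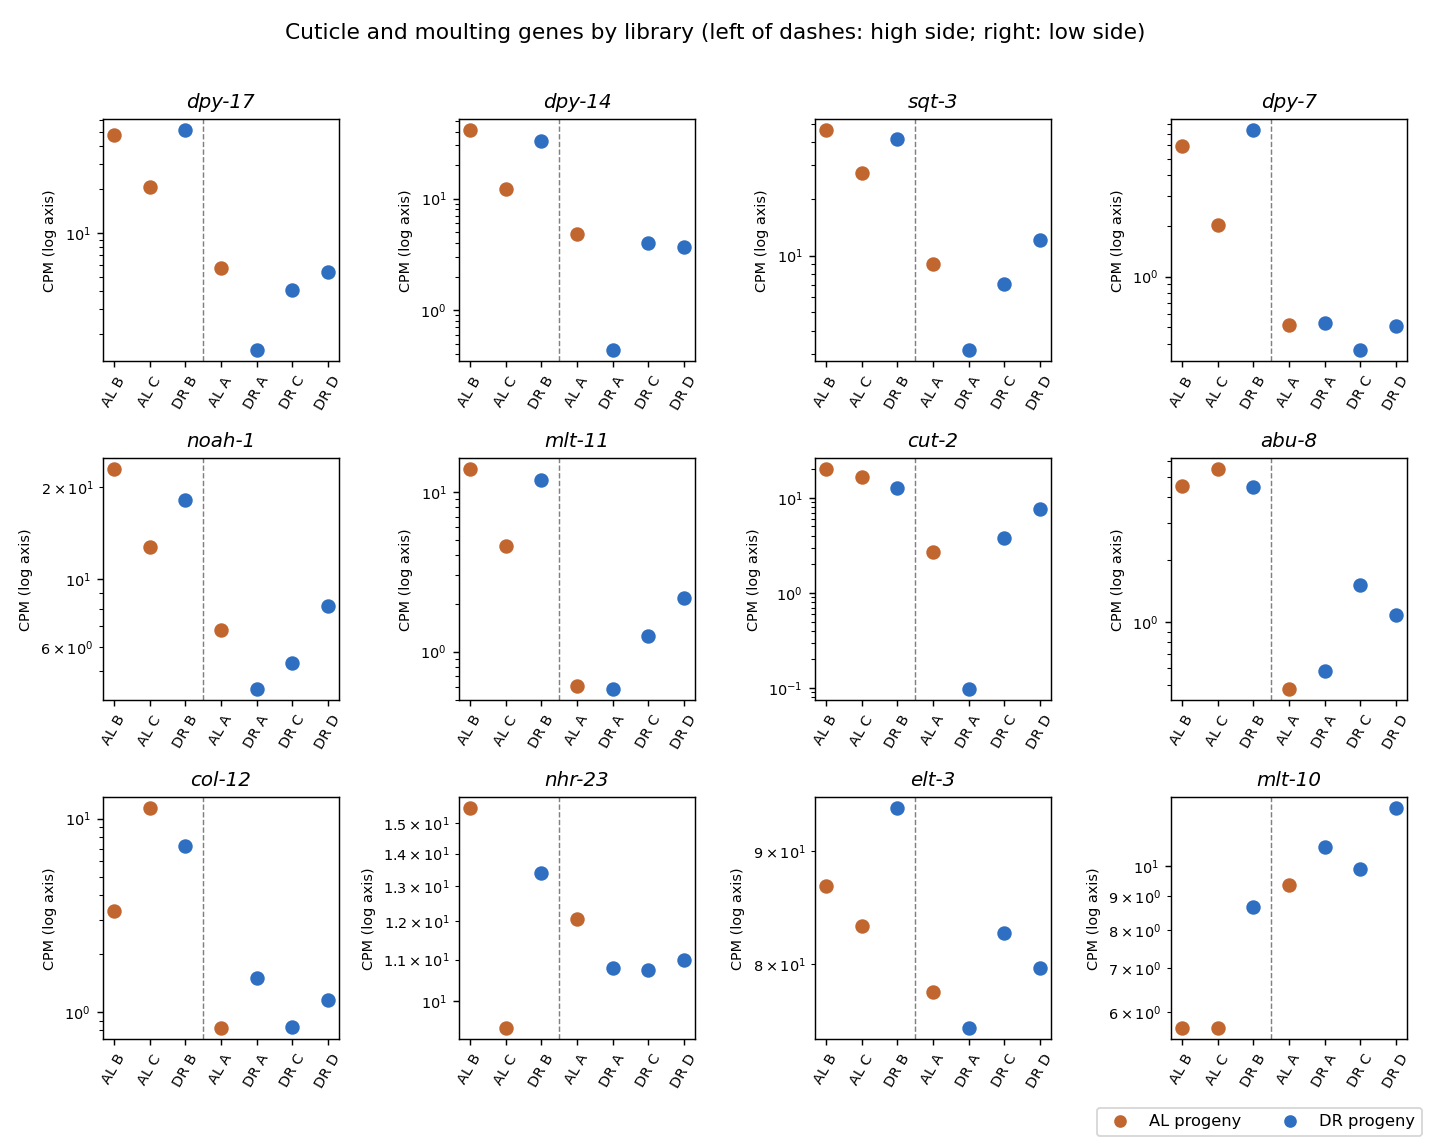
Each panel shows 1 gene, with its level in CPM (log axis) in each of the 7 libraries, high side left of the dashed line and low side right of it. Collagen and precuticle genes such as dpy-14, dpy-7 and noah-1 are separated, the regulators nhr-23 and elt-3 span narrow ranges, and mlt-10 is higher on the low side.

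Genes of the moulting machinery were split between a few that separated the sides and a majority near 0. Of 23 members 5 were apart, and the median was 0.24. The protease inhibitor gene mlt-11 had 13.9, 4.56 and 11.9 CPM against 0.605, 0.581, 1.25 and 2.17 CPM (3.06). The gene hch-1, an astacin protease that digests the eggshell at hatching, had 8.98, 1.44 and 3.84 CPM against 0.735, 0, 0.574 and 0.511 CPM (3.14). The ACE-like gene acn-1 (2.51) and the moulting genes mlt-8 (2.15) and mlt-9 (1.70) were apart too. The proline-rich repeat gene mlt-10, needed to shed the old cuticle, ran the other way without overlap, at 5.67, 5.66 and 8.67 CPM against 9.38, 10.7, 9.91 and 12.3 CPM (−0.68). The protease gene nas-37, which acts in ecdysis, the shedding itself, overlapped (−0.07).

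Regulators of the moulting cycle differed by small amounts. Among 17 transcription factor and timing genes none was apart, where 1.33% of all genes were apart and higher, so that this count is not a result about them. Their median difference was 0.16, and 5 were higher without overlap, against a background of 5%. Without AL B, and likewise without DR D, 1 of the 17 was apart. The period homologue lin-42, whose level cycles with the moults, had 2.48, 3.41 and 3.88 CPM against 1.34, 1.5, 1.83 and 2.17 CPM (0.89). The nuclear receptor gene nhr-25 had 67.2, 59.6 and 65.7 CPM against 53.6, 56.5, 50.3 and 55.3 CPM (0.25). Small differences without overlap were also seen for nhr-91 (0.21) and for the epidermal GATA factor genes elt-3 (0.16) and elt-1 (0.11). The moulting receptor gene nhr-23 overlapped, at 15.5, 9.41 and 13.4 CPM against 12.1, 10.8, 10.7 and 11 CPM (0.17), with AL C below every low library. The sides also overlapped for grh-1 (0.41), nhr-41 (0.30), blmp-1 (0.26), nhr-85 (0.17), daf-12 (0.13), bed-3 (0.11), ztf-6 (0.11), lin-29 (0.05), myrf-2 (−0.01), nhr-67 (−0.02) and myrf-1 (−0.11).

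Hedgehog-related genes of the warthog and groundhog families were apart in 9 of the 32 members that passed, of 59 found. Of these 9, the genes grl-21, wrt-2, grd-14 and grl-1 had all low libraries under the level of the filter, so these 4 passed through the high side and had to differ. With a mean of at least 1 CPM, 4 of 23 members were apart. The groundhog-like gene grl-21 had 7.38, 5.09 and 2.75 CPM against 0.475, 0.0484, 0.0522 and 0.383 CPM (4.09). The gene grl-16 had 2.78, 7.53 and 4.43 CPM against 0.346, 0.0968, 1.57 and 1.47 CPM (2.74), and wrt-1 (2.43), grd-14 (2.21), grl-1 (1.89), grl-7 (1.78), wrt-10 (1.61) and grl-15 (1.24) were apart too. The warthog gene wrt-2 was at 0.827, 0.576 and 1.13 CPM on the high side and at 0 CPM in every low library but DR D, where it was at 0.0639 CPM, below what a count of 0 allows. The list's median was 0.25. Without DR B, 5 genes were apart in place of 9.

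Patched-related genes, which code for membrane proteins with a sterol-sensing domain, lay above 0 in 24 of 26 members, with a median of 0.35. The apart members were ptr-4, with 9.51, 3.26 and 5.46 CPM against 1.08, 0.484, 0.991 and 0.320 CPM (2.91), and ptr-10 (1.06), which passed the filter through the high side and had to differ. Without overlap, 8 members were higher, against 5% of all genes. Leaving out AL B left 1 apart, and leaving out DR D left 4. The gene ptr-2 had 3.48, 4.56 and 4.11 CPM against 2.55, 1.65, 3.60 and 3.45 CPM (0.56), where AL B lay under DR C.

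The lining of the pharynx, a separate cuticle made by pharyngeal cells, was represented by the abu and pqn genes and their kin. Of 16 members that passed, of 25 found, 7 were apart and higher and the median was 1.71. The gene abu-10 had 5.55, 2.45 and 2.30 CPM against 0.173, 0, 0 and 0.511 CPM (4.00). The gene abu-8 had 4.55, 5.47 and 4.47 CPM against 0.475, 0.581, 1.51 and 1.09 CPM (2.40), and abu-11 (2.54), abu-12 (2.37) and abu-7 (1.74) were apart too. Of the 7, abu-10, abu-12 and abu-7 passed the filter through the high side and had to differ. Counts of these near-identical genes could have been split between copies, so single members are uncertain. The most counted gene of the list was phat-6, which is neither an abu nor a pqn gene. It was lower without overlap, at 36.7, 60.9 and 57.9 CPM against 77.7, 67.7, 88.2 and 97.1 CPM (−0.69). By contrast phat-4 was apart and higher, at 5.43, 10.7 and 3.84 CPM against 1.17, 2.32, 1.67 and 1.34 CPM (1.89). Summed over the list the sides overlapped, at 213 to 278 and 195 to 239 CPM. Markers of pharyngeal muscle differed in the opposite direction from the abu genes, with 12 of 13 below 0, a median of −0.20 and summed levels of 5523 to 6553 CPM against 6601 to 7093 CPM. The part of pharyngeal cells in the result was not tested. Without DR D, 12 of the abu and pqn genes were apart in place of 7. Of the related idp genes, a list made after the values were seen, 4 of 17 were apart. The enzyme gene chs-2, which makes the chitin of the pharynx, overlapped at 8.15, 4.61 and 2.75 CPM against 2.03, 1.4, 3.08 and 3.00 CPM (1.02). Of 31 chitin genes 2 were apart, cht-1 (1.17) and lgx-1 (1.38).

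Of 33 antimicrobial peptide genes of the epidermis that passed, 9 were higher and 4 lower without overlap, against 5% and 3.65% of all genes. None was apart and lower, and 4 were apart and higher: nlp-32 (2.66, passed through the high side), fipr-26 (2.15), fipr-24 (1.79) and cnc-11, with 20.7, 26.3 and 26.3 CPM against 7.61, 12.9, 10.5 and 6.96 CPM (1.39). The damage-responsive gene nlp-29 had 63.0, 72.7 and 69.4 CPM against 45.3, 57.1, 53.8 and 38.5 CPM (0.50). Lower without overlap were cnc-3 (−0.93), fip-2 (−0.49), fipr-2 (−0.40) and fipr-1 (−0.39). Without AL B, and likewise without DR A, 7 were apart and higher in place of 4. The osmotic stress gene gpdh-1, which codes for an enzyme of glycerol synthesis, overlapped (0.34), and none of 10 genes of osmotic and cuticle-damage responses was apart.

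**Figure D3:**
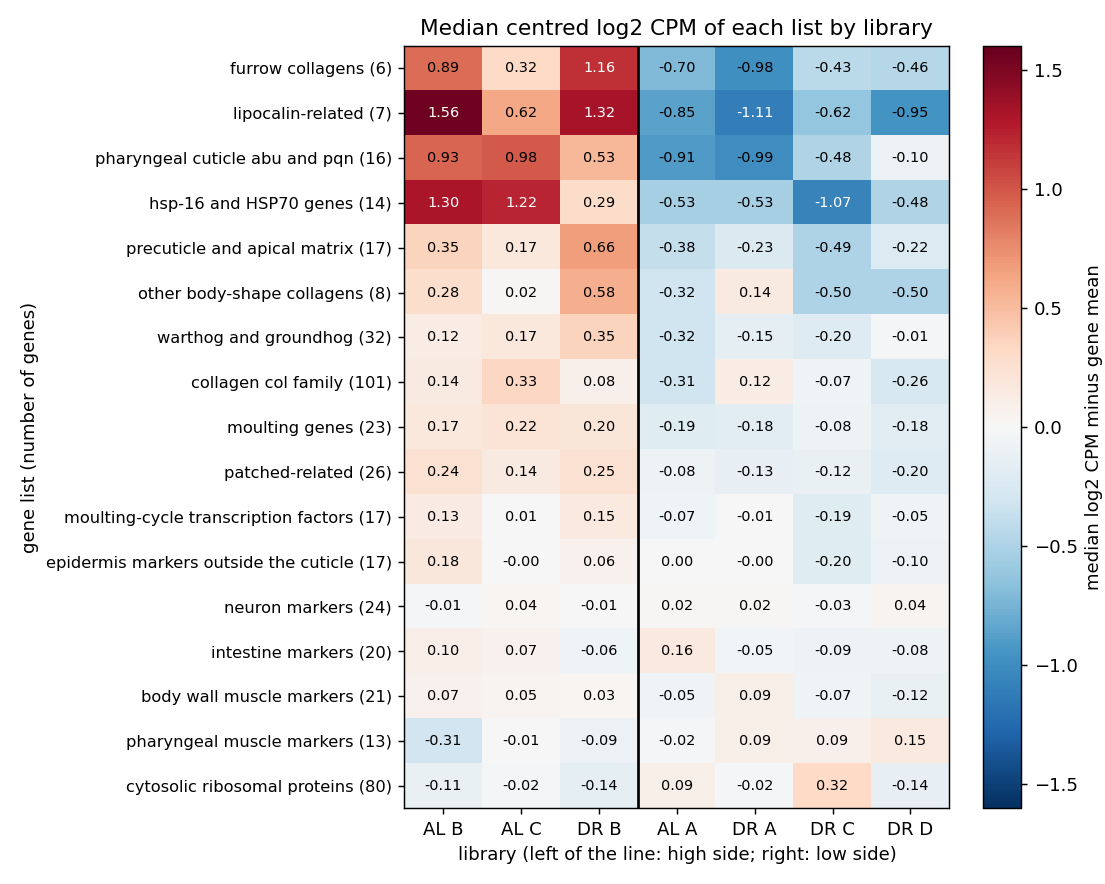
Rows are gene lists with their number of genes, columns are the 7 libraries, and each cell gives the median over the list of log2 CPM minus the gene's mean over all libraries. Furrow collagens run from −0.98 in DR A to 1.16 in DR B, while neuron markers stay between −0.03 and 0.04, and pharyngeal muscle markers run from −0.31 in AL B to 0.15 in DR D.

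Markers of the other cell types of the larva differed little between the sides. Markers of the epidermis outside the cuticle, such as the junction and attachment genes vab-10 (0.17) and mup-4 (0.37), had a median of 0.17 over 17 genes, none apart, with summed levels of 2153 to 2516 CPM against 1819 to 2285 CPM. Seam cell markers had a median of 0.13 over 7 genes. Medians were 0.00 for 24 neuron, 0.08 for 21 body wall muscle, 0.07 for 20 intestine, −0.06 for 17 germ cell, 0.10 for 10 glia and 0.00 for 11 excretory and coelomocyte markers. Of all these markers, ptr-10 of the glia list, which passed the filter through the high side, was the one gene apart. Summed excretory and coelomocyte markers did not overlap, at 830 to 885 against 753 to 810 CPM. Of the 22 body wall muscle genes, 1 had no read in any library, and no gene found of the other cell type lists was without a read in all of them. The genes of cytosolic ribosomal proteins lay below 0 in 79 of 80 cases, with a median of −0.16, and DR C had the highest summed level.

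Transcripts known from embryos were examined because the larvae were collected at a set time after bleaching, so that unhatched embryos would add such RNA. Of 28 maternal and early embryo transcripts that passed, 1 was apart, where 1.33% of all genes were apart and higher. It was the maternal gene pos-1, with 14.2, 16 and 9.48 CPM against 5.14, 3.10, 8.24 and 3.51 CPM (1.46). The list's median was 0.19 and its summed levels overlapped, at 176 to 199 against 128 to 222 CPM. Of 10 zygotic embryo transcripts, hch-1 was the one apart and the median was 0.17. Cell cycle genes had a median of 0.05 over 32 genes, with none apart. The part of embryos or of hatching time in the result was not tested.

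Some stress genes separated the sides too, in a list put together after their values had been seen. Of the 14 genes of this list 8 were apart, where 1.33% of all genes were apart and higher, and the median was 1.84. The list holds hsp-16 and HSP70 genes and also other chaperone genes such as hsp-90. Of the 8, hsp-70 passed the filter through the high side and had to differ. The heat-inducible HSP70 gene F44E5.4 had 70.2, 40.1 and 24.16 CPM against 10.03, 9.92, 5.27 and 9.26 CPM (2.28), and its near-identical neighbour F44E5.5 had a difference of 2.25. The small heat shock gene hsp-16.48 (T27E4.3) had 14.5, 10.03 and 6.10 CPM against 2.94, 2.08, 1.88 and 2.94 CPM (1.95), and hsp-16.2 had 2.54, 2.26 and 1.31 CPM against 0.519, 0.242, 0.522 and 0.447 CPM (1.99). These near-identical copies are uncertain as single genes. In contrast with the furrow collagens, F44E5.4, hsp-16.48 and hsp-16.2 were lowest of the high side in DR B. Constitutive chaperone genes were level, with hsp-1 at −0.06 and hsp-90 at −0.11, and the heat shock factor gene hsf-1 was at 0.00.

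The high libraries did not share a single order over all apart genes. AL B was the highest of them for 97 of the 197 genes, AL C for 48 and DR B for 52. Genes low in AL B included F08H9.4, a small heat shock gene, with 2.83, 27.5 and 45.8 CPM against 0.821, 1.5, 0.678 and 0.894 CPM (3.90). The fatty acid and retinol binding protein gene far-3 had 3.72, 16.6 and 27.8 CPM against 1.56, 1.74, 2.30 and 0.703 CPM (2.96). The superoxide dismutase gene sod-5 had 1.18, 9.98 and 13.1 CPM against 0.562, 0.823, 0.313 and 0.447 CPM (3.18), and lea-1, a gene for a desiccation-tolerance protein, had 63.8, 119.02 and 128 CPM against 53.2, 40.8, 43.0 and 29.8 CPM (1.28). AL B was by contrast the highest for the asparagine synthetase gene asns-2, with 89.2, 19.4 and 24.6 CPM against 10.8, 4.45, 6.52 and 10.6 CPM (2.19). The gene nspe-1 had 6.38, 8.49 and 12.3 CPM against 1.12, 1.5, 5.16 and 3.45 CPM (1.84).

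Genes lower on the high side were few, and those averaging above 5 CPM included genes of alcohol and fat metabolism. The alcohol dehydrogenase gene adh-1 (K12G11.3) had 185, 183 and 144 CPM on the high side, against 710, 424, 385 and 573 CPM on the low side (−1.58). The acyl-CoA synthetase gene acs-2 (F28F8.2), which readies fatty acids for oxidation and is induced by fasting, had 6.38, 5.09 and 3.61 CPM against 34.6, 7.65, 8.19 and 18.8 CPM (−1.52). The gene acer-1 had 233, 227 and 160 CPM against 618, 333, 320 and 463 CPM (−1.04). The lysosomal lipase gene lipl-1 had 12.58, 22.6 and 21.8 CPM against 27.3, 23.3, 42.5 and 70.2 CPM (−1.01). For clec-61, which codes for a C-type lectin, the values were 4.49, 4.75 and 5.87 CPM against 11.6, 7.65, 14.6 and 11.1 CPM (−1.12).

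These 5 genes are all that were apart and lower with a mean of at least 5 CPM. AL A and DR D were the highest 2 libraries for adh-1, acer-1 and acs-2. Without AL A the differences were −1.42, −0.85 and −1.1, and without DR D that of lipl-1 was −0.70. The factor gene mxl-3, which represses lipase genes in fed animals, was lower without overlap but by less than 2-fold (−0.82), and its target lipl-3 overlapped at 1.95, 3.41 and 6.23 CPM against 15.3, 3.15, 13.7 and 22 CPM (−1.64). The glyoxylate cycle gene icl-1 overlapped, with AL A at 437 CPM and the other 6 libraries at 126 to 209 CPM. Over a list of 26 starvation response genes 2 were apart and lower, acs-2 and lipl-1, none was apart and higher, and the median was −0.02. With a library left out, 1 was apart and lower without AL B, DR C or DR D and 3 were without DR A, and 1 was apart and higher without AL B or DR C. In that list the superoxide dismutase gene sod-3 was higher without overlap, at 9.45, 11.5 and 10.3 CPM against 4.89, 8.71, 7.04 and 5.24 CPM (0.71).

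**Figure D4:**
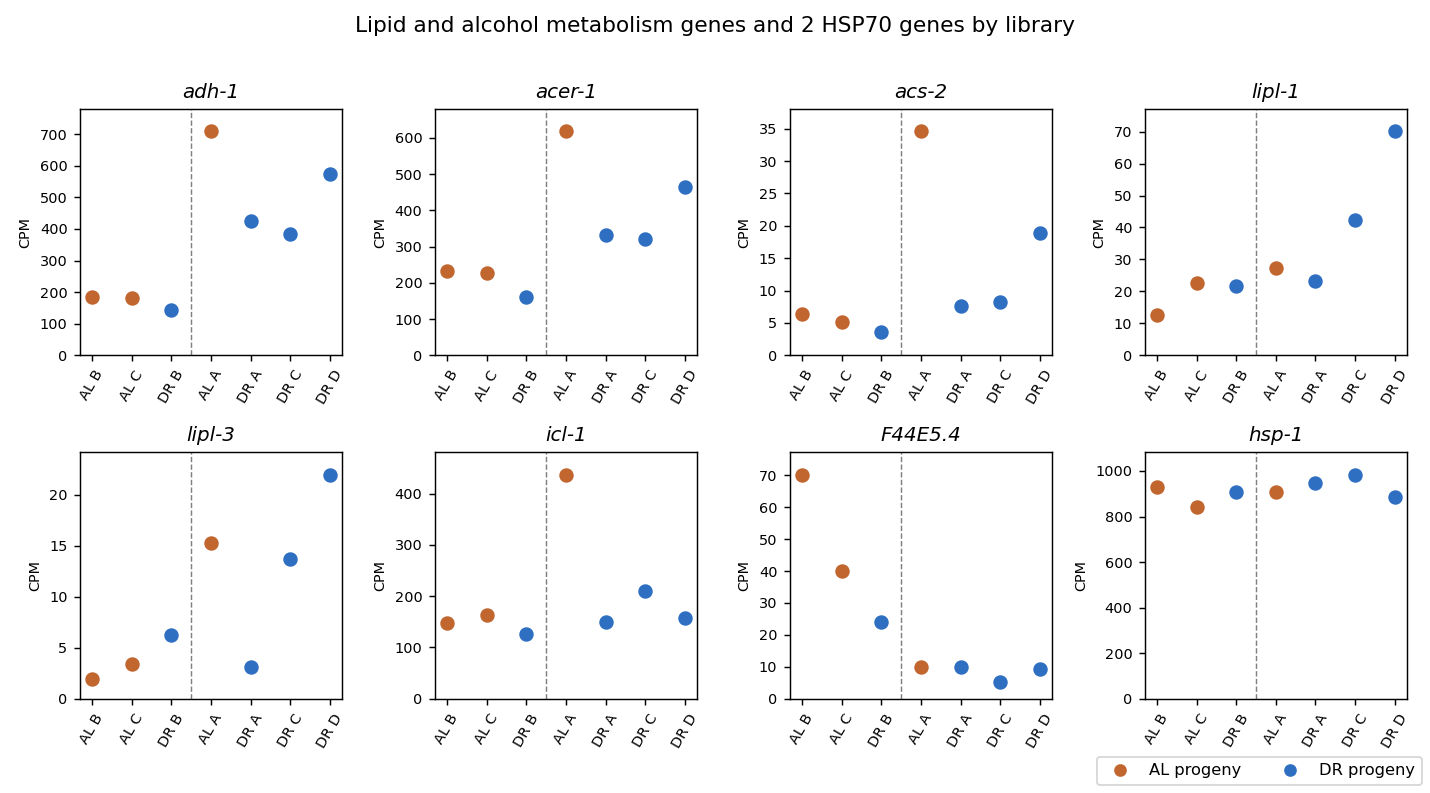
Each panel shows 1 gene, with its level in CPM on a linear axis from 0 in each of the 7 libraries, high side left of the dashed line. The genes adh-1, acer-1 and acs-2 are lower in all 3 high libraries and highest in AL A, F44E5.4 is higher in them, and hsp-1 is level.

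Genes whose levels followed dpy-17 most closely over the 7 libraries were taken among those with a mean of at least 5 CPM. The correlation of log2 CPM was 0.988 for sqt-3, 0.980 for noah-1, 0.973 for dpy-14, 0.962 for M176.5, 0.950 for the caveolin gene cav-1, 0.948 for both W09G3.7 and F30H5.3, 0.946 for dpm-3, 0.944 for F28H1.1 and 0.939 for W04A8.4. These values are descriptive, since the libraries share the split. Of the 10 genes, sqt-3, noah-1, dpy-14 and F30H5.3 were apart. The others differed little, as for cav-1 with 41.2, 32.4 and 41.9 CPM against 27.9, 24.7, 28.8 and 25.4 CPM (0.52), and dpm-3, at 0.24.

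The labelled comparison of DR with AL progeny, which asks whether parental diet alters the transcripts of starved offspring, was the one contrast tested here. By the edgeR quasi-likelihood test with Benjamini-Hochberg adjustment, 2 of 14867 genes (0.0135%) passed an adjusted p of 0.05, amt-1 and K02E7.6, and neither was apart between the sides. None of the 216 genes that were apart passed in that test. Their lowest adjusted p was 0.377, and 8 of them had an unadjusted p under 0.05, while DESeq2 called none of them either, with 15 under that unadjusted level.

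For dpy-17 the levels were 24.7 ± 21.3 CPM in AL (SD, n = 3) and 15.5 ± 23.8 CPM in DR progeny (SD, n = 4). Its log2 fold change was −0.64 ± 1.37 (SE, adjusted p = 0.894, edgeR). The SD was close to the mean in AL and above it in DR progeny, and each group held libraries of both sides. The changes were −0.89 ± 1.39 for dpy-14 (adjusted p = 0.846, edgeR), −0.77 ± 1.01 for sqt-3 (adjusted p = 0.813, edgeR) and −0.63 ± 0.66 for noah-1 (adjusted p = 0.762, edgeR). Of the 197 genes higher on the high side, 182 had a negative DR-minus-AL value, with a median of −0.74, and of the 19 lower genes 17 had a positive one, with a median of 0.48. The high side holds 2 of 3 AL libraries and 1 of 4 DR libraries, so these signs share libraries with the split and are no separate result. Among the high libraries alone, where DR B is the single DR library, the DR-minus-AL value was 0.70 for dpy-17, 0.54 for dpy-14 and 0.21 for sqt-3. Among the low libraries, where AL A is the single AL library, the values had the opposite sign, at −0.80, −1.27 and −0.48.

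Adding the side of the split as a term to that model lowered the common biological coefficient of variation from 0.162 to 0.144. With the replicate letters as a term in place of the side it was 0.138. No gene passed in the fit with the side, against 2 without the term, and 1010 genes had an unadjusted p under 0.05 in place of 1597. For amt-1 the log2 fold change was then 1.12 (adjusted p = 0.0686, edgeR) and for K02E7.6 it was 0.82 (adjusted p = 0.0686, edgeR). Where a term is made from the data that are tested, the resulting p and the lower variation are descriptions.

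The file names carry 2 prefixes, BB1 for AL A, DR A, DR B and DR C and BB2 for AL B, AL C and DR D. BB1 holds 1 library of the high side and BB2 holds 1 of the low side. The difference between the sides for dpy-17 was 3.91 within BB1 and 2.52 within BB2, for dpy-14 it was 3.90 and 2.56, for sqt-3 2.79 and 1.55, for noah-1 1.73 and 1.05, for adh-1 −1.76 and −1.64, and for lipl-1 −0.46 and −2.06. These 6 genes do not overlap between the sides, so their sign within a prefix is fixed by how they were chosen, and each value rests on 1 library of a side.

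Some named genes overlap another gene on the opposite strand in the Ensembl annotation: sqt-3 (F23H12.13), far-3 (far-5), adh-1 (sodh-2), col-74 (gtap-1), cut-3 (evl-20), wrt-2 (pccb-1), fbn-1 (upp-1), dpy-8 (C31H2.14) and amt-1 (C05E11.15). The library kit does not keep the strand, so reads from such overlaps cannot be told apart. The genes mlt-10, mlt-11, dpy-10 and noah-2 overlap other annotated genes on the same strand.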

How the data were processed

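Messenger RNA of 7 populations of starved L1 larvae was sequenced after poly(A) selection using a non-directional kit and 12 cycles of PCR, per the labels. Alignment used Bowtie 1.1.2, counting used HTSeq and the comparison used edgeR, per the submitters' processing notes. The genome build is not given in the sources used here, so coordinates are left out. Raw counts per feature and library were deposited by the authors. HTSeq's summary lines, 22.2% to 24.0% of a library, were left out. A deposited workbook by the authors with CPM, log2 fold changes and p-values was used for the names of 177 features and for no result. Names of 44443 features came from Ensembl release 115, and 348 had none.

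CPM and log2 CPM (TMM factors, prior count 2) were computed with edgeR 4.0.16 in R 4.3.3 from the deposited counts of genes passing filterByExpr on the labelled groups. DR and AL were compared with edgeR's robust quasi-likelihood F-test (two-sided) and Benjamini-Hochberg adjustment over 14867 genes. DESeq2 1.42.0 was an alternative. The edgeR test and the rule for genes apart were run on simulated counts, and DESeq2 was not. The differences between the sides have no test. With no record of separate cultures beyond the words of the submitters, p-values measure the spread between these libraries. The libraries carry no molecular identifiers, so a floor of 3 counts covers counting error only.

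The split, the members and the gene lists were chosen with earlier results of these data known. Genes were named by rule: the 12 with the largest positive and negative differences among apart genes with a mean of at least 5 CPM and a symbol other than a clone name (5 were negative), all furrow and body-shape collagens and moulting-cycle factors, 20 further cuticle, moulting and stress genes, and the 10 genes most correlated with dpy-17. Any other gene named is an example picked with its values in view. Alternatives tried were other scalings and filters, other size limits, medians, a term for parental diet, file-name prefixes, a replicate block, covariates, and each library left out.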

Additional observations from a re-analysis of the deposited data

Results flagged for a closer look

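Values of the 4 DR libraries were examined for a single library far from the others, as the gap to its nearest neighbour over the whole range, against the 95% critical value of Dixon's test. Of 79 values examined 18 exceeded it. Chance alone flags about 1 in 20, which is no comparison here, since dpy-17 made the split and many of the genes were named because they separate DR B from the other DR libraries. DR B, the DR library of the high side, was the highest for 13 genes: col-65 (0.988), dpy-7 (0.976), dpy-3 (0.959), mlt-8 (0.944), wrt-2 (0.943), far-3 (0.941), dpy-17 (0.923), nhr-23 (0.909), dpy-14 (0.891), fbn-1 (0.890), mlt-11 (0.860), hch-1 (0.850) and noah-2 (0.846). Except for nhr-23, whose sides overlapped, these values restate the split, which put DR B on the other side from DR A, DR C and DR D. The number of features detected was also highest in DR B (0.942), at 20940 against 20094 to 20143. The receptor gene daf-12 stood lowest in DR C (0.856), at 56.3 CPM against 67.3 to 69.1 CPM in the other DR libraries, and nhr-85 stood lowest in DR D (0.889), at 20.6 CPM against 28.9 to 29.9 CPM. DR D had the highest share of ribosomal RNA (0.900) and of counts in the 10 most abundant features (0.867), at 22.5% and 28.3%. AL has 3 libraries and was not examined in this way.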

How the results depend on the processing

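The number of genes apart depended on the size limit and on the filter. Genes apart and higher numbered 304 with no filter on low counts, 345 at a limit of 1.5-fold and 34 with a mean of at least 5 CPM, a filter chosen after seeing the data, against 197 as reported. Genes apart and lower, 19 as reported, numbered 57, 97 and 5 under these settings, 10 with a mean of at least 1 CPM and 11 with scaling by library size only. Within the prefixes, where 1 library forms a side, 462 (BB1) and 716 (BB2) genes were apart and higher, of which 172 and 161 were among the 197, and 166 and 425 were lower. With each library left out in turn, 217 to 266 genes were higher and 16 to 55 lower. Leaving out DR B kept 152 of the 197. The count of lower genes went to 40 when AL A or AL C was left out, to 39 for AL B, to 47 for DR A and to 55 for DR B. With a library left out, fewer libraries have to be clear of each other and the filter was applied anew. The part of each in these counts was not tested. The sign of genes that are apart cannot turn when libraries are left out, so it shows no stability.

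In the DR-minus-AL test 27 genes were higher and 50 lower with no filter on low counts, and 19 were higher and 36 lower by DESeq2, against 2 and 0. With the side of the split or the log2 CPM of dpy-17 as a covariate 0 genes were higher. Between 0 and 2 were higher with a library left out, namely 0 when any AL library or DR A was left out and 1 for DR B. The change of dpy-17 turned to 0.046 with the side as a covariate, and to 0.70 within the high libraries, where dpy-14 was at 0.54, sqt-3 at 0.21 and noah-1 at 0.089. Within the low libraries these 4 genes were at −0.80, −1.27, −0.48 and −0.24. With a library left out it ran from −2.78 (without DR B) to 0.26 (without AL B) for dpy-17 and from −2.86 to 0.28 for dpy-14. The cause of these changes was not tested.

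The replicate letters do not pair the libraries: deviations from the group means correlated at 0.20 for A, 0.27 for B and −0.10 for C. With the letters as a replicate block 2 genes were higher and 2 lower, C49G7.12 and asns-2, the second of which is apart between the sides (log2 fold change −1.6, adjusted p = 0.00478, edgeR).

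Low counts limit the description: 55 of the 197 higher genes and 9 of the 19 lower genes averaged under 1 CPM, where a few reads set the value in a library. Some printed values, such as those of cut-2 and grl-16 in DR A, lay below what a count of 0 allows.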

Other observations

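Further gene groups were described in the same way. Of 24 genes in a list of astacin proteases that passed the filter 1 was apart, where 1.33% of all genes were apart and higher. It was nas-15, with 2.60, 0.720 and 0.903 CPM on the high side against 0.0865, 0.0968, 0.574 and 0.703 CPM on the low side. The astacin gene hch-1, apart and given above with the moulting genes, was not in this list. The secretory pathway, which carries collagens out of the cell, had a median difference of −0.02 over 26 genes, none of them apart. Histone genes had a median of 0.14 over the 10 of 72 that passed, with none apart. Of 57 genes for fatty acid breakdown and lipases, a list made after the values were seen, 2 were apart and lower, none was higher, and the median was −0.07.

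Single genes outside these groups were apart as well and were picked after their values were seen. The laminin alpha gene lam-3, which codes for a basement membrane protein, had 7.79, 3.31 and 12.1 CPM against 2.03, 1.79, 1.93 and 2.94 CPM. The gene dao-2 had 12.3, 2.40 and 8.40 CPM against 2.12, 0.242, 0.939 and 1.53 CPM. The ferritin gene ftn-1, an iron store, had 16.7, 19.5 and 14.9 CPM against 12.1, 11.4, 10.1 and 2.04 CPM, and DR D was far below the other libraries.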
